A study of Mus musculus with 15 samples.

Results

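The 10 genes described here take fatty acids into the cell, carry them, store them in droplets, release them again and pass them to the mitochondria. They are the rows of the expression table whose symbol is *Cd36*, *Lpl*, *Fabp3*, *Fabp4*, *Fabp5*, *Pnpla2*, *Mgll*, *Plin2*, *Cpt1a* or *Pparg*, 10 of 35880 genes, and all 10 were found. The list was chosen by name with expression values of these lines in view, and which values were used is not recorded, so every comparison of the 10 genes is a description and supports nothing further.

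RNA sequencing was done on LL2 cells, the luciferase-tagged LL2/Luc2 form of the mouse Lewis lung carcinoma line, grown alone in DMEM with serum and antibiotics. The 15 samples formed 5 lines with 3 biologic replicates each. LL2 WT was the parental line, carrying neither knockout. KEAP1 KO #1, #2 and #3 were edited in *Keap1*, and NRF2 KO was edited in *Nfe2l2*, the gene of NRF2, both with a CRISPR plasmid that also carried GFP. The 3 KEAP1 KO lines are called clones #1, #2 and #3. Each knockout line was grown from 1 sorted cell, so what a knockout line shows may belong to its clone, and the single NRF2 KO clone has no second clone to compare it with. No control transfection or single-cell sort of LL2 WT is described, so the effect of a knockout and that of transfection and single-cell cloning cannot be told apart from LL2 WT alone.

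Fatty acids reach a cell free in the medium or are cut from lipoprotein triglyceride by lipoprotein lipase, and CD36 helps them across the membrane. Fatty acid binding proteins carry them inside, and what is not burned is stored as triglyceride in droplets coated with perilipins. Lipases then take the triglyceride apart 1 fatty acid at a time, and CPT1A loads the acids onto carnitine for entry into mitochondria. PPARγ is a fatty acid sensing nuclear receptor known to switch on many of these genes in fat cells and macrophages. KEAP1 marks the transcription factor NRF2 for degradation, so that its loss raises the activity of NRF2.

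The table held CPM, counts scaled to a shared library total, which summed to between 998941 and 999306 per sample, and between 17270 and 19750 genes per sample were above 0. Of the edited genes, *Keap1* RNA lay between 22.0 and 24.0 CPM in LL2 WT, between 10.8 and 12.5 CPM in clone #1 and between 3.78 and 7.29 CPM in clone #2 and #3. *Nfe2l2* RNA was still present in NRF2 KO at between 102 and 146 CPM, against 170 to 208 CPM in LL2 WT, and it was as low in the KEAP1 KO clones, at between 87.0 and 124 CPM over their 9 samples. *Nqo1*, a standard NRF2 target, lay between 26.1 and 36.5 CPM in LL2 WT, between 253 and 545 CPM over the 9 KEAP1 KO samples and between 8.55 and 11 CPM in NRF2 KO. The epithelial keratins *Krt8* and *Krt18* were well above 1 CPM in every line, while *Epcam* and *Cdh1* averaged at most 0.0444 CPM in any line, and the 4 lung lineage markers together reached at most 1.18 CPM in a sample.

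Promoters are shown for the genes that passed both the p and the fold limit described further on in all 3 KEAP1 KO lines. They were *Cd36*, *Lpl*, *Mgll* and *Pparg*. The RefSeq promoter table for GRCm38.p6, which gives 250 bases before and 50 bases after a start site, matched 7 of the 10 genes with 10 promoters. Letters were searched on both strands for the core of the antioxidant response element bound by NRF2, TGACNNNGC, for DR1, the PPAR site made of a repeated AGGTCA with 1 base between the copies, for the CCAAT box and for the E-box CACGTG. Over all 32851 promoters of the table, 12.4% held the antioxidant response element core, 0.0396% held DR1, 37.4% held CCAAT and 7.15% held CACGTG. The promoters of *Cd36*, *Mgll* and *Pparg* that held at least 1 match follow 5′ to 3′, with every match in capitals.
*Cd36*, chr5:17835847-17836146, minus strand: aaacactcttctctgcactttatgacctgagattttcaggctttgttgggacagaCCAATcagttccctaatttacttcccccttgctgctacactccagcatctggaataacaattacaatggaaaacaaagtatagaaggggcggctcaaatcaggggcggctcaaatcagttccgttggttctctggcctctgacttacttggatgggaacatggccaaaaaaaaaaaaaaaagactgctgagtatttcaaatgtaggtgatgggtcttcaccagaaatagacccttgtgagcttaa
*Mgll*, start 1, chr6:88724162-88724461, plus strand: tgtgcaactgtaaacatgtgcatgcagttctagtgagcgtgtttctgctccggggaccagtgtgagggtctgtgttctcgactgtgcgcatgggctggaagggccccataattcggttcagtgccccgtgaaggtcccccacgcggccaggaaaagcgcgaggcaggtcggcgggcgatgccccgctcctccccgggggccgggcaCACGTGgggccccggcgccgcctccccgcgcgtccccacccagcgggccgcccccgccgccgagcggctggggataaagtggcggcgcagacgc
*Pparg*, start 2, chr6:115362099-115362398, plus strand: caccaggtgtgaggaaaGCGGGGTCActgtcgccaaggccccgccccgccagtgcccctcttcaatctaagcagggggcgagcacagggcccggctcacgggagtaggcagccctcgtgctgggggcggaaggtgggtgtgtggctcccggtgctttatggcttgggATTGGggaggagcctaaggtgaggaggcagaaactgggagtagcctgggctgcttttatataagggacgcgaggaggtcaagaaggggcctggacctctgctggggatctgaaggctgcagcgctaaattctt
*Pparg*, start 3, chr6:115421816-115422115, plus strand: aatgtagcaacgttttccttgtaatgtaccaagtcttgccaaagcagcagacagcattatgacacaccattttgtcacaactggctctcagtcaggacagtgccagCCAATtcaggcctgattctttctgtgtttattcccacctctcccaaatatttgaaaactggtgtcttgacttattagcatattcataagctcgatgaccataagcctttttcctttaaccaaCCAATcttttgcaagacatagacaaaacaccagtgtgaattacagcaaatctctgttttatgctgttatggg

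The capitals in *Cd36* and in start 3 of *Pparg* are CCAAT boxes, with 1 and 2 matches. The single match in *Mgll* is the E-box. Start 2 of *Pparg* holds the only antioxidant response element core among the 10 promoters. That core lies on the opposite strand and appears on the printed strand as GCGGGGTCA, from 233 bases before the start site. The same promoter holds 1 CCAAT box, also on the opposite strand. DR1 was found in none of the 10 promoters. Start 2 of *Mgll*, at chr6:88724454-88724753, and start 1 of *Pparg*, at chr6:115360894-115361193, held none of the 4 motifs. *Lpl* has no entry. A match is a run of letters and not a shown binding site, and a missing match says nothing about sequence outside the window.

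Changes were measured on log2(CPM + 0.1), which understates the change of low genes, with a single limma fit over the 14652 genes whose CPM summed to at least 3 over the 15 samples. A gene was called when its Benjamini-Hochberg adjusted p was under 0.05 and its log2 fold change was beyond 1 in either direction. All 10 genes passed the low-value filter, but *Cd36*, *Fabp3*, *Fabp4* and *Mgll* passed it only with the KEAP1 KO samples included. The LL2 WT and NRF2 KO samples together summed to 0 CPM for *Cd36* and 0.0761 CPM for *Mgll*, so these genes could pass only by being higher in the KEAP1 KO lines. For *Fabp3* and *Fabp4* they summed to 2.27 and 2.72 CPM, and an equal level in all lines would also have passed. Against LL2 WT, 5 of the 10 genes were called higher in clone #1, 4 in clone #2 and 5 in clone #3, and none was called lower in these lines. Among all genes tested, 4.55% were called higher and 3.99% lower in clone #1, 5.94% higher and 7.75% lower in clone #2, and 6.09% higher and 7.34% lower in clone #3. In NRF2 KO, 1 of the 10 genes was called lower and 0 higher, where 0.375% of all genes were called lower and 0.0887% higher. Since the genes were chosen with values in view, the counts are not read against these shares.

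**Figure D1:**
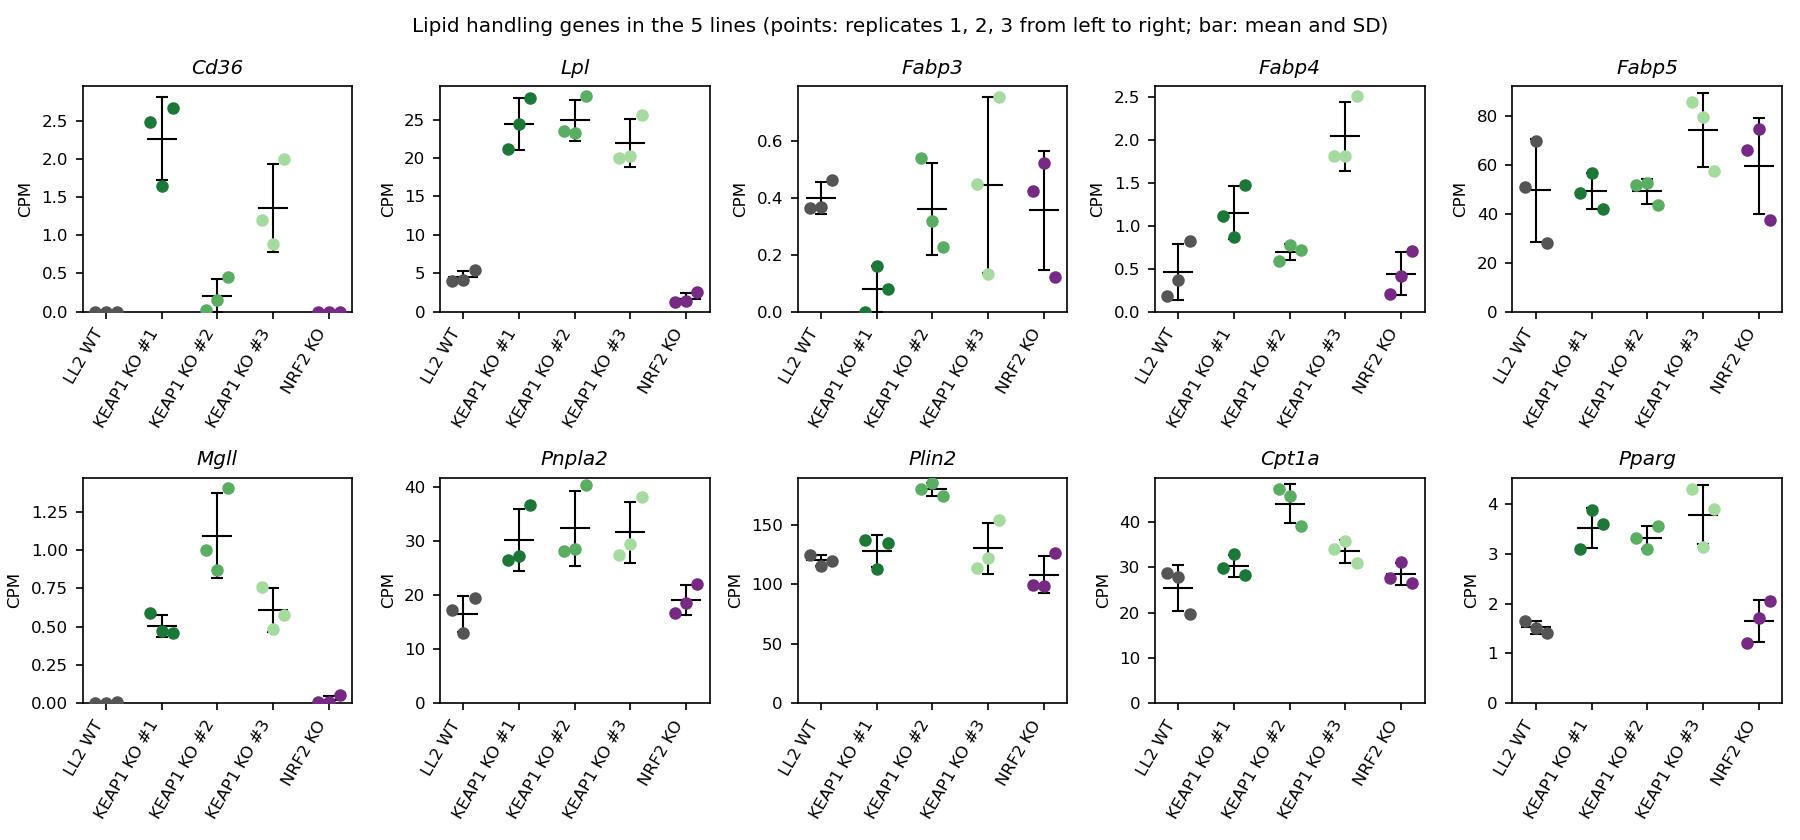
CPM of the 10 genes (vertical axes, each from 0 and each with its own range) in the 5 lines (horizontal axes). Points are the 3 replicates of a line in order from left to right, the long bar is their mean and the whiskers are the SD. All 9 KEAP1 KO samples lie above all LL2 WT and all NRF2 KO samples for *Cd36*, *Lpl*, *Mgll*, *Pnpla2* and *Pparg*.

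*Lpl* encodes lipoprotein lipase, a secreted enzyme that frees fatty acids from lipoprotein triglyceride (chr8:68880491-68907448, plus strand, GRCm38). The 3 LL2 WT samples stood at 4.01, 4.15 and 5.45 CPM and the NRF2 KO samples at 1.23, 1.34 and 2.53 CPM. Clone #1 stood at 21.1, 24.5 and 27.9 CPM, clone #2 at 23.5, 23.2 and 28 CPM, and clone #3 at 20.0, 20.3 and 25.6 CPM. Every KEAP1 KO sample was above every LL2 WT sample, and every NRF2 KO sample was below every LL2 WT sample. *Lpl* was the only one of the 10 genes whose samples stood apart in opposite directions in the 2 kinds of knockout. Its mean was 5.40, 5.50 and 4.84 times that of LL2 WT in clone #1, #2 and #3, with log2 fold changes of 2.41, 2.44 and 2.25 (SE 0.23 each), all called. The 3 KEAP1 KO lines overlapped each other. In NRF2 KO the mean was 37.6% of LL2 WT, a log2 fold change of -1.42 ± 0.23 (SE) with a limma adjusted p of 0.01293. That call was lost without LL2 WT replicate 3, at -1.28, without NRF2 KO replicate 1, at -1.24, and without NRF2 KO replicate 2, at -1.29. From NRF2 KO to the KEAP1 KO lines the means differed 12.9 to 14.6 times.

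*Cd36* encodes a scavenger receptor that takes up fatty acids and oxidized lipoproteins (chr5:17781690-17888801, minus strand). It was listed at 0 in all 3 LL2 WT and all 3 NRF2 KO samples, so no fold is given against either line. The samples of clone #1 read 2.49, 1.64 and 2.67 CPM, those of clone #2 read 0.0270, 0.149 and 0.449 CPM, and those of clone #3 read 1.2, 0.879 and 2.00 CPM. Clone #1 and #3 overlapped, and all 3 clone #2 samples lay below both. Replicate 1 of clone #2 was under 0.1 CPM, the level of 3 reads at a depth of 30 M reads, and is close to the limit of detection. *Cd36* was called higher than LL2 WT in all 3 KEAP1 KO lines. In clone #2 the limma adjusted p was 0.04023, and the call was lost when any 1 of 9 samples was left out: LL2 WT replicate 1, 2 or 3, clone #1 replicate 1 or 3, clone #2 replicate 2 or 3, clone #3 replicate 1, or NRF2 KO replicate 1. The fitted difference was then 0.83 without clone #2 replicate 3, 1.40 without clone #2 replicate 2 and 1.37 without any of the other 7. It was also lost with a pseudocount of 1 CPM in place of 0.1, at 0.26, and with no filter on low values, at 1.37 with an adjusted p of 0.06027.

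*Cd36* is also a macrophage gene. The summed level of 7 macrophage markers lay between 14.96 and 17.5 CPM in LL2 WT and between 15.4 and 18.4 CPM in NRF2 KO. In clone #1, #2 and #3 it ran from 31.1 to 42.4, 31.1 to 45.5 and 39.7 to 61.4 CPM. *Cd36* was lowest in clone #2. *Cd14* and *Cd68* made up most of the marker sum. *Lyz2*, another of the 7, went the other way, with a mean of 1.13 CPM in LL2 WT, 2.23 CPM in NRF2 KO and 0.468, 0.0337 and 0.0366 CPM in clone #1, #2 and #3. *Adgre1* was listed at 0 in every sample, and *Ptprc* averaged at most 0.124 CPM in any line. The part of macrophage RNA in the values of *Cd36*, or of the other described genes such as *Fabp4* and *Pparg*, was not tested. For *Lpl*, *Fabp4* and *Pparg*, which fat cells express, the 6 adipocyte markers together reached at most 1.08 CPM in any sample, none averaged 1 CPM in a line, and *Lep* was listed at 0 in all of them. The sum of 5 endothelial markers ran from 2.80 to 4.05 CPM in LL2 WT and up to 8.32 CPM in clone #3. In NRF2 KO it ran from 4.24 to 7.56 CPM, also above LL2 WT. The part of endothelial RNA in these results was not tested.

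**Figure D2:**
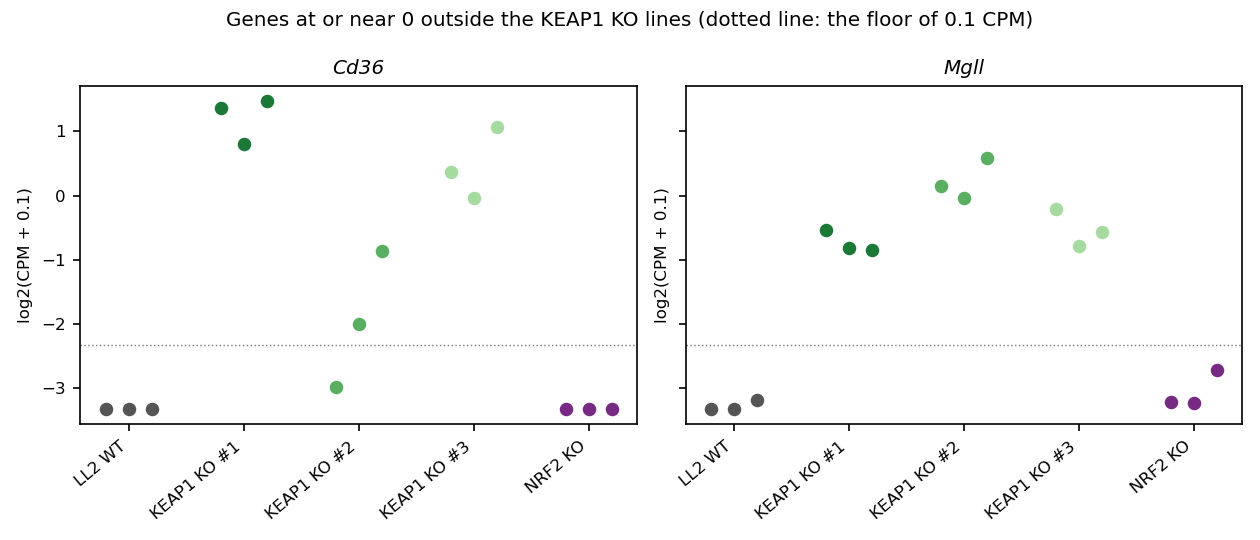
log2(CPM + 0.1) of *Cd36* (left) and *Mgll* (right) on a shared vertical axis in the 5 lines, 1 point per replicate, with a dotted line at the floor of 0.1 CPM. Outside the KEAP1 KO lines all points of both genes lie under the floor, and within those lines only replicate 1 of clone #2 for *Cd36* does.

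*Mgll* encodes monoacylglycerol lipase, which releases the last fatty acid from glycerol and also breaks down the endocannabinoid 2-arachidonoylglycerol (chr6:88724412-88828360, plus strand). LL2 WT stood at 0, 0 and 0.00981 CPM and NRF2 KO at 0.00782, 0.00611 and 0.0523 CPM, all under the floor of 0.1 CPM. In clone #1 the values were 0.589, 0.470 and 0.458 CPM, in clone #2 they were 1.00, 0.872 and 1.40 CPM, and in clone #3 they were 0.762, 0.483 and 0.578 CPM. All 9 KEAP1 KO samples were above that floor and all were above the other 2 lines. Set against the floor, the mean was at least 5.06-fold higher in clone #1, at least 10.9-fold higher in clone #2 and at least 6.08-fold higher in clone #3 than in LL2 WT or NRF2 KO. All 3 lines were called. With a pseudocount of 1 CPM the log2 fold change fell inside the limit in clone #1, at 0.58, and clone #3, at 0.68, and the calls there were lost. Clone #2 did not overlap the other 2 clones, which overlapped each other. The antisense gene *Gm26588* overlaps the start of *Mgll*, as *Gm44079* overlaps *Pparg* and *Zcchc17* the end of *Fabp3*, all on the opposite strand, and whether the counting used strand is not given in the sources used here.

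*Pnpla2* encodes adipose triglyceride lipase, which makes the first cut in stored triglyceride (chr7:141455198-141460743, plus strand). LL2 WT stood at 17.3, 12.9 and 19.5 CPM and NRF2 KO at 16.7, 18.5 and 22.1 CPM. Clone #1 was measured at 26.6, 27.3 and 36.8 CPM, clone #2 at 28.2, 28.7 and 40.4 CPM, and clone #3 at 27.4, 29.4 and 38.1 CPM. All 9 KEAP1 KO samples were above all 6 others, and the clones overlapped. The means were 1.82, 1.96 and 1.91 times that of LL2 WT. The log2 fold changes of 0.87, 0.96 and 0.93 (SE 0.20 each) had adjusted p of 0.00812, 0.002978 and 0.003475 by limma and stayed just inside the fold limit of 1, so *Pnpla2* was not called. It came to be called in clone #2 without LL2 WT replicate 1 or 3 or clone #2 replicate 1 or 2, at 1.00, 1.09, 1.05 and 1.04, and in clone #3 without LL2 WT replicate 3 or clone #3 replicate 1, at 1.06 and 1.03.

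*Pparg*, the gene of PPARγ (chr6:115360951-115490399, plus strand), stood at 1.66, 1.51 and 1.41 CPM in LL2 WT and at 1.21, 1.71 and 2.06 CPM in NRF2 KO. Clone #1 stood at 3.09, 3.88 and 3.61 CPM, clone #2 at 3.32, 3.11 and 3.57 CPM, and clone #3 at 4.31, 3.15 and 3.92 CPM. No KEAP1 KO sample overlapped LL2 WT or NRF2 KO, which overlapped each other, and the 3 clones overlapped. The means were 2.32, 2.19 and 2.49 times that of LL2 WT, with log2 fold changes of 1.16, 1.08 and 1.25 (SE 0.20 each), all called. With a pseudocount of 1 CPM in place of 0.1 these became 0.84, 0.78 and 0.92, inside the fold limit.

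The 3 fatty acid binding proteins did not move alike. *Fabp4*, the form of fat cells and macrophages (chr3:10204088-10208576, minus strand), stood at 0.187, 0.370 and 0.829 CPM in LL2 WT and at 0.209, 0.413 and 0.711 CPM in NRF2 KO. The samples of clone #1 read 1.12, 0.867 and 1.48 CPM, those of clone #2 read 0.589, 0.776 and 0.714 CPM, and those of clone #3 read 1.81, 1.81 and 2.51 CPM. Clone #1 and #3 did not overlap LL2 WT, and clone #2 did. The log2 fold changes were 1.3 ± 0.43 (SE) in clone #1 and 2.08 ± 0.43 in clone #3, both called, and 0.66 ± 0.43 in clone #2, not called. In clone #1 the limma adjusted p was 0.04398, and the call was lost when any 1 of 11 of the 15 samples was left out: LL2 WT replicate 1 (0.90) or 2 (1.25), clone #1 replicate 1 (1.3), 2 (1.47) or 3 (1.12), any replicate of clone #2, clone #3 replicate 1 or 2, or NRF2 KO replicate 2, the last 6 leaving the value at 1.3. It was lost as well with a pseudocount of 1 CPM, at 0.57, with no filter on low values, at 1.3 with an adjusted p of 0.084, and with libraries rescaled by median ratios, at 1.2 with an adjusted p of 0.05422.

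*Fabp5*, the epidermal form often found in tumor cells (chr3:10012548-10016607, plus strand), stood at 51.2, 70.0 and 28 CPM in LL2 WT and at 66.3, 74.9 and 37.5 CPM in NRF2 KO. In clone #1 the values were 48.7, 56.9 and 42.1 CPM, in clone #2 they were 51.9, 52.5 and 43.5 CPM, and in clone #3 they were 85.8, 79.8 and 57.4 CPM. All lines overlapped LL2 WT, whose replicates themselves spread 49.7 ± 21 CPM (SD, n = 3). The log2 fold changes of 0.07, 0.08 and 0.66 in clone #1, #2 and #3 and 0.30 in NRF2 KO, each with an SE of 0.31, were not called. Of the stretches of 31 bases in *Fabp5* transcripts, 9.21% also occur in other genes, mostly *Gm6166*, whose row reached at most 0.379 CPM in any sample.

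*Fabp3*, the heart and muscle form (chr4:130308595-130315463, plus strand), stood at 0.367, 0.370 and 0.465 CPM in LL2 WT and at 0.424, 0.524 and 0.122 CPM in NRF2 KO. Clone #1 was measured at 0, 0.159 and 0.0810 CPM, clone #2 at 0.540, 0.320 and 0.227 CPM, and clone #3 at 0.450, 0.134 and 0.756 CPM. Clone #1 lay below LL2 WT in every sample, but the log2 fold change of -1.57 ± 0.55 (SE) had a limma adjusted p of 0.05362 and was not called. It came to be called lower with a replicate block (adjusted p = 0.04805), with replicate 3 as a batch (0.03871), with median-ratio rescaling (0.04932), and without clone #3 replicate 2 or 3 or NRF2 KO replicate 3 (0.03718, 0.04406 and 0.03791). These values are uncertain: 37.3% of the 31-base stretches of *Fabp3* are shared with other genes, chiefly the copy *Fabp3-ps1*, which was itself listed at between 0 and 0.792 CPM.

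*Plin2*, the droplet coat protein found in most cells (chr4:86648386-86670060, minus strand), stood at 125, 116 and 119 CPM in LL2 WT and at 99.1, 99.0 and 126 CPM in NRF2 KO. Clone #1 stood at 137, 113 and 135 CPM, clone #2 at 180, 185 and 175 CPM, and clone #3 at 114, 122 and 154 CPM. Clone #2 was above every other sample, and the other 4 lines overlapped their neighbors in level. Its log2 fold change of 0.58 ± 0.12 (SE) had an adjusted p of 0.003452 by limma and was inside the fold limit. The values in clone #1 and #3 were 0.09 and 0.10 (SE 0.12 each).

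*Cpt1a* encodes the liver form of carnitine palmitoyltransferase 1, the gate for long-chain fatty acids into mitochondria (chr19:3322334-3385733, plus strand). LL2 WT stood at 28.8, 27.8 and 19.6 CPM and NRF2 KO at 27.7, 31.2 and 26.6 CPM. The samples of clone #1 read 29.9, 33.0 and 28.2 CPM, those of clone #2 read 47.3, 45.9 and 39.1 CPM, and those of clone #3 read 34.1, 35.8 and 30.9 CPM. As for *Plin2*, the 3 samples of clone #2 were the highest of all 15. The log2 fold changes were 0.27, 0.81 and 0.42 in clone #1, #2 and #3 (SE 0.14 each), none beyond the fold limit, with limma adjusted p of 0.1841, 0.0008984 and 0.03924.

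**Figure D3:**
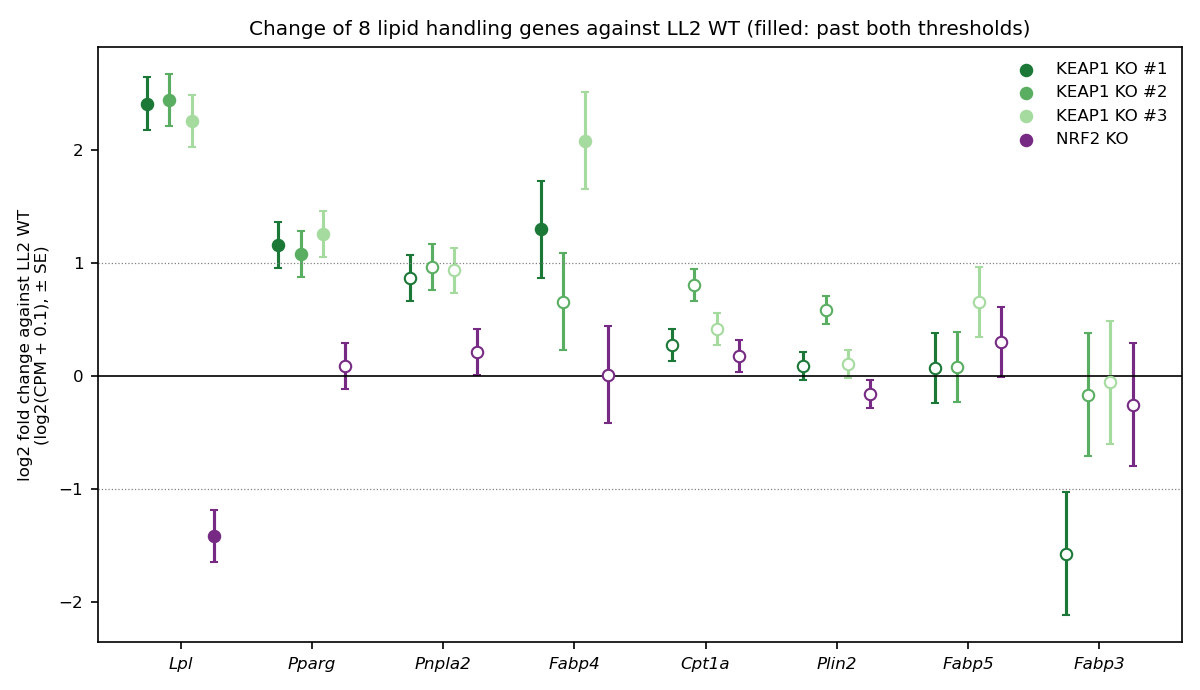
log2 fold change against LL2 WT (vertical axis, on log2(CPM + 0.1), with SE whiskers) of the 8 genes that were above the floor in LL2 WT, with 1 color per line. Filled points passed both thresholds and dotted lines mark a log2 fold change of 1 and -1. *Lpl* is filled in all 4 lines and points down in NRF2 KO, and *Pnpla2* lies between 0.87 and 0.96 in the 3 KEAP1 KO lines.

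NRF2 KO differed little from LL2 WT outside *Lpl*. *Cd36* was listed at 0 in both, *Mgll* was under the floor in both, and the other 7 genes had log2 fold changes between -0.26 and 0.30, none called. With the 3 KEAP1 KO lines pooled against NRF2 KO, 5 of the 10 genes were called higher and 0 lower, where 5.19% of all genes were called higher and 4.75% lower. These were *Lpl* at 3.79 ± 0.19 (SE), *Fabp4* at 1.33 ± 0.35, *Pparg* at 1.08 ± 0.17, *Cd36* and *Mgll*. *Cd36* and *Mgll* could pass the low-value filter only by being higher in the KEAP1 KO lines, so their direction was fixed in advance. The count is not read against these shares. The SE comes from replicates within lines and leaves out the spread between clones. For *Fabp4*, clone #2, at 0.589 to 0.776 CPM, overlapped NRF2 KO, at 0.209 to 0.711 CPM. *Fabp4* was not called without NRF2 KO replicate 1, at 0.98, nor was *Pparg*, at 0.88. With a pseudocount of 1 CPM *Fabp4*, *Pparg* and *Mgll* lost their calls against NRF2 KO, at 0.64, 0.78 and 0.74. *Pnpla2* at 0.71 ± 0.16 and *Plin2* at 0.42 ± 0.10 stayed inside the fold limit. All 4 knockout lines share LL2 WT as their reference, so their values against it are not independent of each other.

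The 3 KEAP1 KO lines carry edits of the same gene, and their comparison shows how far these genes vary between clones. Between clone #2 and #1, 1 of the 10 genes was called, where 4.58% of all genes were called in either direction. There 5 of the 10 had an unadjusted limma p under 0.05. Between clone #3 and #1 none was called, where 4.63% of all genes were, and 1 gene had an unadjusted p under 0.05. Between clone #3 and #2, 1 gene was called, where 0.485% of all genes were, and 5 genes had an unadjusted p under 0.05. The called gene was *Cd36* both times. Its mean in clone #1, 2.27 ± 0.547 CPM (SD, n = 3), was 10.9 times that in clone #2, 0.209 ± 0.217 CPM, with a log2 difference of clone #2 from #1 of -3.16 ± 0.47 (SE). Clone #3, at 1.36 ± 0.576 CPM, was 6.51 times clone #2, with a log2 difference of 2.42 ± 0.47. The latter call, at an adjusted p of 0.03474 by limma, was lost when any 1 of 10 samples was left out: clone #2 replicate 1 (1.90) or 2 (2.39), clone #3 replicate 1 (2.47), 2 (2.67) or 3 (2.12), and, with the value still at 2.42, clone #1 replicate 1 or 3, LL2 WT replicate 1 and NRF2 KO replicate 1 or 2. *Mgll* had the opposite order, with clone #2 highest at 1.09 ± 0.277 CPM, 2.16 times clone #1, but its log2 difference of 0.96 ± 0.31 had an adjusted p of 0.06582 and was not called. Median-ratio rescaling made that difference 1.03 with an adjusted p of 0.04228, a call. *Fabp4* came to be called between clone #3 and #2, at 1.43, with a replicate block (adjusted p = 0.03546) or replicate 3 as a batch (0.03497), and *Fabp3* between clone #3 and #1 without clone #3 replicate 2, at 2.03 (0.04366). The *Cd36* call between clone #3 and #2 was lost with a pseudocount of 1 CPM, at 0.95. *Plin2* and *Cpt1a* were also highest in clone #2, by 0.49 ± 0.12 and 0.53 ± 0.14 on the log2 scale over clone #1. These differences had limma adjusted p of 0.02243 and 0.02813 and were inside the fold limit. *Lpl*, *Pparg* and *Pnpla2* differed by at most 0.19 on the log2 scale between any 2 clones, with SE of 0.20 to 0.23.

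The replicates carried a shared shift. Replicate 3 was above the mean of replicates 1 and 2 in all 5 lines for *Lpl* (by 0.26 to 0.93 on the log2 scale), *Pnpla2* (0.33 to 0.51) and *Fabp4* (0.07 to 1.34), and below it in all 5 lines for *Fabp5* (-1.09 to -0.26) and *Cpt1a* (-0.53 to -0.15). The labels do not say what a replicate number stands for. Without the replicate 3 samples of all lines, a choice made after the values were seen, *Lpl* remained called in all 4 lines, while *Cd36* at 0.83 and *Pparg* at 0.98 were no longer called in clone #2.

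The rest of the pathway was read from 4 lists arranged by role, holding 95 further genes of which 73 were tested. These lists, too, were drawn up with earlier results of the same data known, so their shares of called genes are set beside those of all genes as a description. Of these, 7 were called in clone #1, 11 in clone #2, 11 in clone #3 and 0 in NRF2 KO. The limma test gave 6 of them an unadjusted p under 0.05 in NRF2 KO. Called genes made up 9.59%, 15.1% and 15.1% of the genes tested in the KEAP1 KO lines, beside the 8.54%, 13.7% and 13.4% of all genes called in either direction there. Genes were called in both directions, 4 higher in each KEAP1 KO line and 3, 7 and 7 lower in clone #1, #2 and #3. Among all genes tested, 4.55%, 5.94% and 6.09% were called higher and 3.99%, 7.75% and 7.34% lower in these lines. The counts per list that follow are small and are given beside these shares as a description only.

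Among lipid-sensing regulators, 2 of 15 tested genes were called higher in each KEAP1 KO line, and 0, 2 and 1 lower. The 2 higher genes were the same in each line. *Ppard*, a sister receptor expressed in many tissues, stood at 23.4 ± 5.68 CPM (SD, n = 3) in LL2 WT and rose to 48.0 ± 2.90, 77.1 ± 3.90 and 78.1 ± 2.58 CPM, with log2 fold changes of 1.06, 1.75 and 1.77. *Ppargc1a*, a coactivator that promotes mitochondrial biogenesis, rose from 0.697 ± 0.162 CPM in the parental line to 5.13 ± 0.360, 2.31 ± 0.180 and 3.38 ± 1.37 CPM, with log2 fold changes of 2.73, 1.61 and 2.08. Neither was called in NRF2 KO, at -0.20 and -0.22. *Cebpa*, an adipogenic factor that acts with PPARγ, fell from 5.92 ± 1.41 CPM to 2.44 ± 1.03 CPM in clone #2 and 2.49 ± 0.547 CPM in clone #3, and was not called in clone #1, at 5.61 ± 1.1 CPM.

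Among 20 tested genes of triglyceride assembly, droplets and lipolysis, 2, 1 and 1 were called higher in clone #1, #2 and #3, and 0, 1 and 0 lower. *Fitm2*, whose protein helps droplets bud from the endoplasmic reticulum, was the one that was higher in all 3, at 20.9 ± 3.61, 23.2 ± 6.66 and 32.2 ± 7.41 CPM against 9.56 ± 1.57 CPM in LL2 WT. NRF2 KO stood at 9.08 ± 1.93 CPM. The log2 fold changes in the KEAP1 KO lines were 1.12, 1.24 and 1.73.

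Among 13 tested genes of uptake and activation, 0, 1 and 1 were called higher and 2, 3 and 4 lower. *Cav1*, a membrane coat protein of caveolae, fell from 344 ± 127 CPM in LL2 WT to 121 ± 27.1 CPM in clone #2 and 114 ± 37.0 CPM in clone #3, and stood at 179 ± 33.1 CPM in clone #1, where it was not called. *Slc27a3*, of the fatty acid transport protein family, fell in clone #2 and #3 by 1.25 and 1.32 on the log2 scale. Of the acyl-CoA synthetases, which activate fatty acids, *Acsl6* fell from 11.8 ± 2.2 CPM to 2.02 ± 0.901 CPM in clone #1 and 3.89 ± 0.925 CPM in clone #3. *Acsl5* rose from 71.2 ± 21.4 CPM to 150 ± 22.3 CPM in clone #2. It stood at 111 ± 11.2 CPM in clone #1 and 136 ± 13.3 CPM in clone #3. The log2 fold changes there, 0.68 and 0.98, were inside the fold limit, with limma adjusted p of 0.03813 and 0.004238. *Acsl1*, *Acsl3* and *Acsl4* were not called in any line.

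Among 25 tested genes of mitochondrial and peroxisomal oxidation, none was called higher in any line, and 1, 1 and 2 were called lower in clone #1, #2 and #3. Over all genes tested, 3.99%, 7.75% and 7.34% were called lower there, so these counts are not read as a result about oxidation. *Decr1*, which reduces dienoyl-CoA so that unsaturated fatty acids can be oxidized, stood at 11.6 ± 0.842 CPM in LL2 WT and fell to 3.01 ± 0.704, 2.85 ± 0.752 and 1.90 ± 0.522 CPM, with log2 fold changes of -1.93, -2.01 and -2.58. NRF2 KO stood at 9.30 ± 1.63 CPM. *Etfb*, a subunit of the electron carrier that takes electrons from the acyl-CoA dehydrogenases, fell from 144 ± 32.8 CPM to 69.7 ± 6.11 CPM in clone #3. In clone #2 it stood at 77.8 ± 5.95 CPM, a log2 fold change of -0.86 inside the fold limit (limma adjusted p = 0.004541). Clone #1, at 121 ± 15.9 CPM, was not called. Over the 25 genes the log2 fold change had a median of -0.21, -0.34 and -0.40 in clone #1, #2 and #3, beside 0.11, 0.03 and 0.02 over all genes tested. *Cpt1a*, the entry step to the same pathway, had positive values in all 3.

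5 more genes of the lists were called while averaging under 1 CPM and are named after their values were seen. *Lipg*, endothelial lipase and a relative of *Lpl*, was called lower in all 3 KEAP1 KO lines, with a mean of 1.63 ± 0.301 CPM in the parental line against 0.551 ± 0.146, 0.0754 ± 0.0272 and 0.296 ± 0.0466 CPM. *Fabp2* was called higher in clone #3, *Ces1d* higher in clone #1, and *Faah* and *Cebpd* lower in clone #2.

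**Figure D4:**
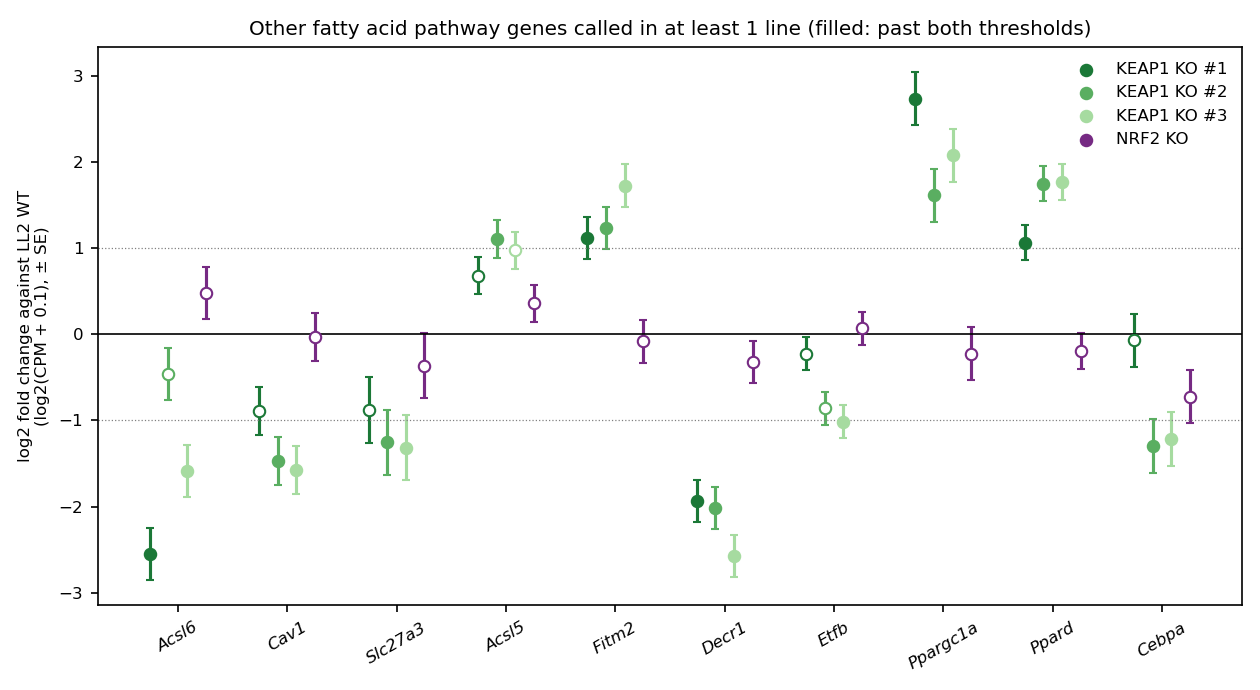
log2 fold change against LL2 WT (vertical axis, on log2(CPM + 0.1), with SE whiskers) of the 10 other fatty acid pathway genes that were called in at least 1 line and averaged at least 1 CPM, with 1 color per line. Filled points passed both thresholds. *Fitm2*, *Ppargc1a* and *Ppard* are filled above 1 and *Decr1* is filled below -1 in all 3 KEAP1 KO lines, and no NRF2 KO point is filled.

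Likeness of pattern was measured as Pearson's r of log2(CPM + 0.1) over the 15 samples, among 11675 genes averaging at least 1 CPM. The 3 genes most like *Lpl* were *Mgst1*, a membrane glutathione transferase (r = 0.99), *Blvrb*, a biliverdin reductase (r = 0.99), and *Stom*, a membrane scaffold protein (r = 0.99). Those most like *Pparg* were *Adh7*, an alcohol and retinol dehydrogenase, *Nt5e*, the ectoenzyme CD73 that makes adenosine, and *Larp4b*, an RNA-binding protein (r = 0.97, 0.97 and 0.96). All points share their libraries, and the samples fall into the KEAP1 KO lines on the one side and LL2 WT and NRF2 KO on the other, so these are descriptions of order only. *Cd36*, *Mgll* and *Fabp4* averaged under 1 CPM and were not matched.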

How the data were processed

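Poly(A)-selected libraries from 15 cultures were sequenced, with 3 biologic replicates per line. The labels' processing notes name bcl2fastq 1.9.0, kallisto and GRCm39, while the methods name GRCm38.p6 transcripts. The deposited values are CPM per gene, made by the authors from kallisto's estimates, with fractional values and no whole-read steps, so counts could not be recovered and depth per sample is unknown. At the mean depth of 30 M reads in the methods, 3 reads make the floor of 0.1 CPM, which covers counting error only. A row without a symbol held 0.0214 to 0.0491% of CPM and was left out. Lines and replicates were taken from the labels.

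limma 3.58.1 (R 4.3.3) was fitted to log2(CPM + 0.1) of all 14652 genes that summed to at least 3 CPM, with a mean per line, a trended prior and Benjamini-Hochberg adjustment over all genes. The fit was tested on simulated data, with changes put only into genes of higher level in LL2 WT. *Cd36*, *Mgll*, *Fabp3*, *Fabp4* and *Pparg* lie below that level, so the simulation does not cover them. Replicate numbers were checked for pairing. Members and lists were chosen with earlier results of these data known. Named pathway genes were those called in at least 1 of the 4 comparisons with LL2 WT with a mean of at least 1 CPM, at most 5 per list. Likeness was named for called members averaging at least 1 CPM, 3 genes each. Positions and 31-base sharing came from GENCODE on GRCm38, and promoters from RefSeq. Alternatives were a pseudocount of 1 CPM, no filter, median-ratio rescaling, a replicate block, replicate 3 as a batch, and leaving out each sample. Python 3.11.15, pandas 2.3.3 and matplotlib 3.10.9 were used. Protein sequences were not used here.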

Additional observations from a re-analysis of the deposited data

Results flagged for a closer look

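*Cd36*, the fatty acid uptake receptor, differed between KEAP1 KO clones by limma's test of the difference itself. KEAP1 KO #2 was lower than #1 by a log2 difference of -3.16 (adjusted p = 0.001007), with each of its 3 samples below all 3 of the other line. KEAP1 KO #3 was higher than #2 by a log2 difference of 2.42 (adjusted p = 0.03474), again without overlap. The other 9 genes were not called in any of the 3 clone pairs in the fit reported, though under other settings *Mgll* was called for #2 against #1 (1.03 with median-ratio rescaling), *Fabp4* for #3 against #2 (1.43 with a replicate block or replicate 3 as a batch) and *Fabp3* for #3 against #1 (2.03 without KEAP1 KO #3 replicate 2). The cause was not tested, and each line is 1 clone.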

How the results depend on the processing

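With a pseudocount of 1 CPM, the described genes called fell from 5, 4 and 5 to 2, 2 and 3 in the KEAP1 KO lines #1, #2 and #3 against LL2 WT, to 2 for the KEAP1 KO lines against NRF2 KO and to 0 for #3 against #2, and the pathway genes called in line #2 fell from 11 to 7. Rescaling by median ratios lowered the all-gene median of line #1 from 0.11 to 0.01 and gave 2 calls between #2 and #1, *Cd36* and *Mgll*. With no filter, 4, 3 and 5 described genes were called in lines #1, #2 and #3. Deviations from the line mean of same-numbered samples of different lines had a median correlation of 0.28 over 30 pairs. Over 60 pairs with different numbers it was -0.19. The deviations of a line sum to 0, so a positive value for same numbers pulls the value for different numbers below 0, and the latter is no separate result. The 10 replicate 3 pairs lay between 0.42 and 0.63, those of replicate 2 between 0.13 and 0.53 and those of replicate 1 between -0.022 and 0.28. As 22 of 30 and not every pair exceeded 0.1, and the labels tie the numbers to no shared culture or day, the samples were not treated as paired, although the numbers carry a shared shift. A replicate block gave 2 calls between #3 and #2, *Cd36* and *Fabp4*, as did replicate 3 as a batch. Over all genes, the block raised the calls in NRF2 KO from 13 higher and 55 lower to 41 and 138. In line #1 they rose from 667 higher and 584 lower to 790 and 807. The shares of all genes given here therefore depend on leaving the block out. Without the replicate 3 samples of all lines, chosen after seeing the data, line #2 had 2 calls. Leaving out each sample in turn gave 4 to 6, 3 to 5 and 5 to 6 calls in lines #1, #2 and #3, 0 to 1 in NRF2 KO, 3 to 5 for the KEAP1 KO lines against NRF2 KO, and 1, 0 to 1 and 0 to 1 for #2 against #1, #3 against #1 and #3 against #2. Small uncalled changes against LL2 WT turned sign. With a pseudocount of 1 CPM *Fabp3* became 0.025 in line #3 and *Fabp4* -0.0084 in NRF2 KO. Median-ratio rescaling gave -0.034 for *Fabp5* and -0.018 for *Plin2* in line #1 and -0.029 for *Fabp4* in NRF2 KO. Without the replicate 3 samples *Fabp5* became -0.18 and -0.20 in lines #1 and #2, *Fabp3* 0.15 in line #2 and 0.29 in NRF2 KO, *Plin2* -0.026 in line #3 and *Pparg* -0.13 in NRF2 KO. Over single samples left out, *Fabp5* ranged from -0.29 to 0.37 in line #1, -0.28 to 0.38 in line #2, -0.067 to 0.60 in NRF2 KO and -0.33 to 0.17 for the KEAP1 KO lines against NRF2 KO, and *Fabp3* from -0.43 to 0.058, -0.47 to 0.46 and -0.55 to 0.20 in lines #2 and #3 and NRF2 KO. *Plin2* ranged from -0.023 to 0.19 in line #3, and in NRF2 KO *Fabp4* from -0.39 to 0.46 and *Pparg* from -0.074 to 0.29. The cause was not tested. *Lpl* kept its direction and its call in the 3 KEAP1 KO lines under every alternative run. Low counts limit *Cd36*, *Mgll*, *Fabp3* and *Fabp4*, and without depth per sample no counting interval is given.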
